A study of Mus musculus with 2 samples.

Results

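Described here are the barcodes, from single-cell libraries of the mouse parotid gland, in which transcripts of the demilune cell and parotid protein genes Dcpp1, Dcpp2 and Dcpp3 together made up at least 15% of all unique molecular identifiers (UMIs, each of which stands for 1 captured RNA molecule). They were selected on that share alone and are called Dcpp-high barcodes. A barcode was kept for this if it had 200 genes or more and its mitochondrial share of UMIs did not exceed 5%. There were 184 Dcpp-high barcodes among 8664 kept barcodes, 72 of 3378 in the control library and 112 of 5286 in the irradiated (IR) library. The control library came from the parotid glands of untreated wild-type female C3H mice of about 1 year. The IR library came from wild-type female C3H mice whose head and neck received 6 Gy a day for 5 days, 30 Gy in total, at 6 to 10 weeks of age, and whose glands were taken 10 months later. Each library pooled 2 mice. With 1 library for each condition there was no test, and ratios past 2-fold are descriptions of these libraries. Intervals are 95% intervals and cover counting error only.

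Intercalated ducts are the narrow first ducts that drain the serous acini of a salivary gland and lead into the striated ducts, where the saliva is modified. Their cells secrete proteins of their own, and DCPP proteins are small lectin-like proteins of saliva that are known from demilune and duct cells. Other products of such cells, among them peptidoglycan recognition protein 1 (Pglyrp1) and whey acidic protein family members such as Wfdc18, belong to innate defence.

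The 3 Dcpp genes lie next to each other on the plus strand of chromosome 17 (build GRCm38), with Dcpp1 at chr17:23880876-23882853, Dcpp2 at chr17:23880880-23900788 and Dcpp3 at chr17:23917458-23919441. The annotated Dcpp2 locus covers nearly all of that of Dcpp1, and the transcripts of Dcpp2 and Dcpp3 are 95.4% identical. Over the last 300 bases, where a poly(A)-primed library takes its reads, Dcpp1 and Dcpp2 are 92.0% identical and Dcpp2 and Dcpp3 96.3%, so the split of UMIs between the paralogs is uncertain and their sum is firmer. Their promoters are shown because the sum of the 3 genes defines the barcodes and the 3 start sites share nearly the same upstream sequence. The RefSeq start site of Dcpp2 lies inside the Dcpp2 locus given above and not at the start of that locus. The 150 bases before each RefSeq start site (GRCm38.p6, plus strand) are chr17:23880726-23880875 for Dcpp1, chr17:23898572-23898721 for Dcpp2 and chr17:23917308-23917457 for Dcpp3, with the letters TATAA in capitals.
Dcpp1: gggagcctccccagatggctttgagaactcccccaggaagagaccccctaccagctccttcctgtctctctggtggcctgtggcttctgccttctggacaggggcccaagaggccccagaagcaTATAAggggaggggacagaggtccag
Dcpp2: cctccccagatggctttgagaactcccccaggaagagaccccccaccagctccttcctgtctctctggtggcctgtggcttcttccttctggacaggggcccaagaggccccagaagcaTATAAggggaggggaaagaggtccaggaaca
Dcpp3: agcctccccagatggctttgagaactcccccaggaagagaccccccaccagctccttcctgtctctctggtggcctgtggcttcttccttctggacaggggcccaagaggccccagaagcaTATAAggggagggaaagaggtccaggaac
TATAA was searched on both strands of the window from 250 bases before to 50 bases after each start site, and it occurred once in each, on the plus strand, with no overlap with another match. It began 26 bases before the start site of Dcpp1, 31 before that of Dcpp2 and 29 before that of Dcpp3. Of all 32851 promoters in the RefSeq table, 24.9% hold TATAA on either strand. The windows of Dcpp1 and Dcpp2 were 93.8% identical, and those of Dcpp2 and Dcpp3 96.4%.

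Dcpp-high barcodes made up 2.13% of the kept control barcodes (Clopper-Pearson interval 1.67 to 2.68) and 2.12% of the kept IR barcodes (1.75 to 2.54). They held 82.4% of all Dcpp UMIs of the kept barcodes in the control library and 84.1% in the IR library. The share of Dcpp that chose them ran from 15.2% to 91.5% of UMIs in the control library, with a median of 35.7%, while IR shares ran from 15.2% to 79.7% around a median of 24.7% (36.1% without 51 barcodes described below). The nearest barcodes outside the limit had 14.8% (control) and 14.7% (IR). The Dcpp shares formed a continuous tail: 48 control barcodes held between 5% and 15%. The 2 libraries had 3 kept barcode sequences in common, and none of them was Dcpp-high.

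Among the IR barcodes, 51 of the 112 were nearly alike. Of the 3828 pairs that could be formed from the 88 IR Dcpp-high barcodes with at least 2000 UMIs, 694 (18.1%) agreed within 1.5 times sampling noise in a chi-square comparison over genes, and chained pairs of this kind joined 51 barcodes into 1 set. A second set of 35 alike IR barcodes lay below the limit, where 287 of 1326 pairs (21.6%) of barcodes with 5 to 15% Dcpp agreed. None of 741 pairs of Dcpp-high barcodes agreed in the control library, and in the acinar barcodes described below 0.106% of control and 0.307% of IR pairs did. The 51 barcodes had between 17.2% and 27.7% Dcpp, between 46.5% and 53.6% serous secretory UMIs, and from 2279 to 17484 UMIs each. Whether they are 51 cells or many droplets that shared 1 source was not tested, so the main IR values are also given without them. The comparison with Etv1 barcodes was not repeated without them. Without them, 61 IR Dcpp-high barcodes remained, or 1.15% of the kept barcodes, and the ratio of the IR to the control share was 0.541 (0.379 to 0.772) in place of 0.994 (0.733 to 1.36). With alike barcodes included, the ratio was 1.65 among epithelial barcodes (17.7% against 10.7%) and 2.07 among barcodes with at least 500 genes. Neither value is given without the alike barcodes, so a turn in direction is not shown apart from them.

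The depth of single barcodes was uneven. Control Dcpp-high barcodes had a median of 2518 UMIs and 369.5 genes, with a range from 506 to 70778 UMIs, and the deepest gave 9.63% of their 735192 UMIs. IR barcodes had a median of 5637 UMIs and 669.5 genes, and 2599 UMIs and 507 genes without the 51 alike ones. The deepest IR barcode had 133546 UMIs, which was 14.1% of the 945307 UMIs of all 112. The nuclear RNA Malat1 was found in 52.8% of control and 57.1% of IR Dcpp-high barcodes, compared with 98.7% of the B-cell barcodes of either library. These B-cell barcodes (538 control, 632 IR) were chosen by a UMI of both Cd79a and Cd79b and none of Cd3e. After thinning to 500 UMIs outside Dcpp the shares were 41.3% and 26.9%, against 98.1% and 97.9% in B-cells. A Malat1 UMI was thus missing in many Dcpp-high barcodes at a depth where nearly every B-cell barcode had one. Acinar barcodes (15.7% and 15.4%) and the alike barcodes (9.80%) had lower shares, and Etv1 barcodes, described below, higher ones (77.7% and 72.6%). The part of this in the values below was not tested.

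The label of an intercalated duct was set beside Wfdc18 and Pglyrp1, which took no part in the choice of barcodes. They were named as markers with earlier results of these data known, so their presence is not an independent check. Both were found in most Dcpp-high barcodes. Wfdc18 was found in 52 of 72 control and 88 of 112 IR barcodes, and Pglyrp1 in 51 and 95. Thinned to 500 UMIs outside Dcpp, which left out 9 control barcodes, Wfdc18 was present in 46.0% of control Dcpp-high barcodes (33.4 to 59.1), in 1.12% of acinar, 7.32% of striated duct and 0.743% of B-cell barcodes. Pglyrp1 was present in 54.0% (40.9 to 66.6), 5.6%, 2.44% and 0.929% of the same groups. B-cells should lack both genes, and their shares give the level of free RNA. Thinned IR Wfdc18 was present in 41.3% of Dcpp-high barcodes and 0.949% of B-cells, and in 54.7% without the alike barcodes. Thinned IR Pglyrp1 was present in 44.2% of Dcpp-high (34.5 to 54.3) and 28.9% of striated duct barcodes (16.4 to 44.3), intervals that overlap, and in 2.22% of B-cells. Krt7, a keratin of duct cells, was nearly absent, with 2 UMIs in the control and 6 in the IR Dcpp-high barcodes, and Krt19 had 0 UMIs in both. The markers named for this cell type were thus present and those 2 duct keratins were not. Unthinned, Wfdc18 (chr11:83709015-83711348) ranged over control barcodes from 0 to 67021 CPM (UMIs scaled to a total of 1e6 UMIs outside Dcpp1-3), with a median of 1286. Over IR barcodes it ranged from 0 to 27654 CPM, with a median of 681, and 963 without the alike ones. Pglyrp1 (chr7:18871331-18890459) had medians of 1347 CPM in the control and 1169 CPM in the IR barcodes, and of 1370 CPM without the alike ones. The libraries overlapped for both genes, although the highest control barcodes lay above every IR barcode (10408 against 6562 CPM for Pglyrp1).

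**Figure D1:**
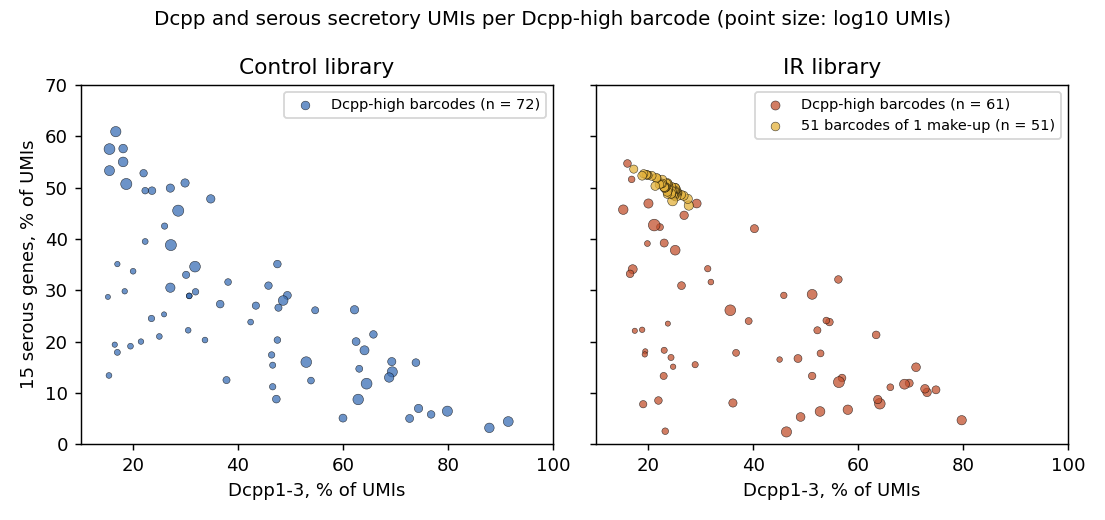
Each point is 1 Dcpp-high barcode, with its Dcpp1-3 share of UMIs (%, horizontal) and its share of 15 serous secretory genes (%, vertical); point size gives log10 of its UMIs, and panels give the control (n = 72) and IR library (n = 112). The 51 alike IR barcodes form a tight group between 17.2% and 27.7% Dcpp, while the other barcodes of both libraries scatter widely, with lower serous shares at higher Dcpp shares, as 2 shares of 1 total must.

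The make-up of the Dcpp sum was not used to choose the barcodes. Dcpp1 gave 93.1% of the Dcpp UMIs of control Dcpp-high barcodes, Dcpp2 4.81% and Dcpp3 2.08%. In IR barcodes Dcpp1 gave 99.0%, Dcpp2 0.589% and Dcpp3 0.363%, and without the alike barcodes Dcpp2 gave 0.593%. These sums differed about as much as a few barcodes did: the median barcode had 0.470% Dcpp2 in control and 0.496% in IR barcodes. In 7 control barcodes Dcpp2 made up between 23.9% and 38.5% of Dcpp, and these 7 held 81.7% of all Dcpp2 UMIs of the 72. No IR barcode was above 5.87%. The 7 barcodes lay between 15.4% and 91.5% Dcpp. Those with the highest Dcpp shares of the library, 91.5% and 87.9%, were among them and held 6756 and 3947 of the 14480 control Dcpp2 UMIs. The 7 barcodes also held 46 of the 48 UMIs of Ltf, which encodes the iron-binding protein lactoferrin. These lay in 3 barcodes, and 1 barcode had 77.1% of the 48. Of the 33 UMIs of Dmbt1, a scavenger receptor protein of saliva, the 7 held 20. Malat1 had 3 UMIs in the 7 against 3399 in the other 65, a ratio of 0.0547 (0.0113 to 0.160) per UMI outside Dcpp. It was found in 3 of the 7 and in 35 of the 65, so the sums differed more than the shares of barcodes with it. In acinar barcodes, whose Dcpp UMIs are few, Dcpp2 gave 2.67% (2.33 to 3.05) of Dcpp in control and 5.21% (4.71 to 5.74) in IR barcodes. The IR value was 4.02% without 15 acinar barcodes that belonged to a second set of alike barcodes with 5.99% to 12.7% Dcpp. In B-cell barcodes Dcpp2 gave 2.63% in control and 1.44% in IR barcodes.

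**Figure D2:**
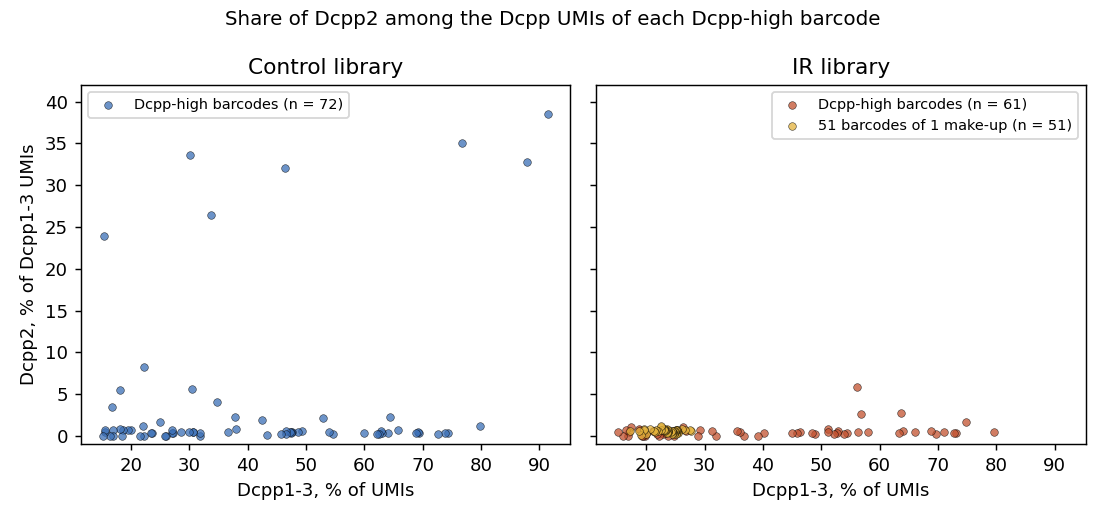
Dcpp2 as a percentage of Dcpp1-3 UMIs (vertical) against the Dcpp1-3 share of UMIs (%, horizontal) in each Dcpp-high barcode of the control (left) and IR library (right), with the 51 alike barcodes in yellow. The 7 control barcodes between 23.9% and 38.5% stand apart from the rest, and no IR barcode lies above 5.87%.

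Secretory transcripts other than Dcpp did not keep the same proportions across the range of Dcpp shares. Bpifa2, which encodes parotid secretory protein, was the most abundant transcript outside Dcpp, with 35.3% of the remaining UMIs in control and 36.8% in IR Dcpp-high barcodes. Smr3a, a submaxillary gland androgen-regulated protein gene, gave 8.58% and 3.55%. The control barcodes were split by Dcpp share into 28 with 15 to 30%, 26 with 30 to 60% and 18 with 60% and over. From the lowest to the highest band, Bpifa2 was nearly level at 36.1%, 33.8% and 33.4% of UMIs outside Dcpp. Over the same bands Smr3a was at 11.7%, 3.56% and 1.06%. The amylase gene Amy1 was at 4.99%, 2.39% and 0.389%, and the chitinase gene Chia1 at 5.02%, 3.36% and 0.458%. In the control bands Bpifa2 thus stayed within a few percentage points while Smr3a, Amy1 and Chia1 had lower shares in each higher band. The IR bands differed in this: Bpifa2 was at 39.9% (31.6% without the alike barcodes), 26.9% and 25.7%, and Amy1 at 3.57%, 0.318% and 0.393%. IR Smr3a was at 4.49% (4.20% without the alike barcodes), 0.463% and 0.423%, a larger fold difference between bands than that of Bpifa2. The Bpifa2 to Smr3a ratio was 3.08 (3.04 to 3.12), 9.49 (9.13 to 9.86) and 31.4 (29.1 to 33.9). In control B-cells, whose serous UMIs give the make-up of free RNA, it was 3.07 (3.02 to 3.12), in acinar barcodes 3.56 and in Etv1 barcodes, described below, 3.14. The sum of the lowest band was thus close to these 3 groups and that of the highest band was far above them. Single barcodes overlapped between the bands, with medians of 3.73, 5.94 and 14.5 and a range from 2.37 to 105 in the highest band. In other control groups these medians were 2.81 in B-cells, 3.22 in striated duct, 3.62 in Etv1 and 6.31 in acinar barcodes. The control acinar median was thus above that of the middle band. Single acinar and Etv1 barcodes reached 1049 and 2240, above every barcode of the highest band.

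BC037156, a long non-coding RNA gene at chr5:87908779-87914171, had higher shares in the higher bands of both libraries. It gave 4.40%, 5.03% and 5.74% of UMIs outside Dcpp in the 3 control bands, compared with 2.65% in acinar and 0.255% in B-cell barcodes. Its IR shares were 2.95% (2.78% without the alike barcodes), 4.34% and 4.59%, and 2.16% in acinar barcodes. Per control Smr3a UMI there were 0.375, 1.41 and 5.40 BC037156 UMIs, and 0.227 in B-cells. In the IR library the bands held 78, 23 and 11 barcodes, and the lowest band 27 without the alike ones. Their Bpifa2 to Smr3a ratio was 8.87 (8.75 to 9.0), 58.0 (53.2 to 63.4) and 60.7 (51.4 to 72.3), and 7.53 (7.35 to 7.72) in the lowest band without the alike barcodes. IR B-cells had 6.93 (6.78 to 7.08), acinar barcodes 7.81 and Etv1 barcodes 6.21. The sum of the lowest IR band lay nearer to these groups than those of the higher bands, which were several times above them. IR striated duct barcodes, however, had 21.2 (19.9 to 22.5), above the lowest band. The medians of single IR barcodes were 9.55 (8.95 without the alike ones), 21.9 and 56.3. In other IR groups these medians were 6.46 in B-cells, 11.3 in Etv1, 18.7 in striated duct and 21.4 in acinar barcodes. The acinar median was thus about that of the middle band. BC037156 per Smr3a was 0.656, 9.38 and 10.8 in the IR bands, 0.379 in IR B-cells and 1.56 in IR striated duct barcodes. Across barcodes, the Spearman correlation of the Dcpp share with Smr3a per Bpifa2 was -0.53 over 72 control barcodes and -0.61 over 112 IR barcodes (-0.49 over the 61), which is a description only, because barcodes of 1 library share mice, library and depth. Among genes outside the serous list, Pglyrp1 was at 739, 2032 and 4410 CPM in the control bands and at 1301, 2296 and 4052 CPM in the IR bands without the alike barcodes. Bglap3, a member of the osteocalcin gene cluster, was at 1056, 1885 and 6737 CPM and at 1381, 4219 and 8830 CPM. Wfdc18 was highest in the middle control band, at 1146, 9401 and 4670 CPM, and 1 barcode held 30.9% of all its control UMIs. Its IR bands were at 642 (719 without the alike barcodes), 5974 and 7772 CPM, highest in the top band.

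**Figure D3:**
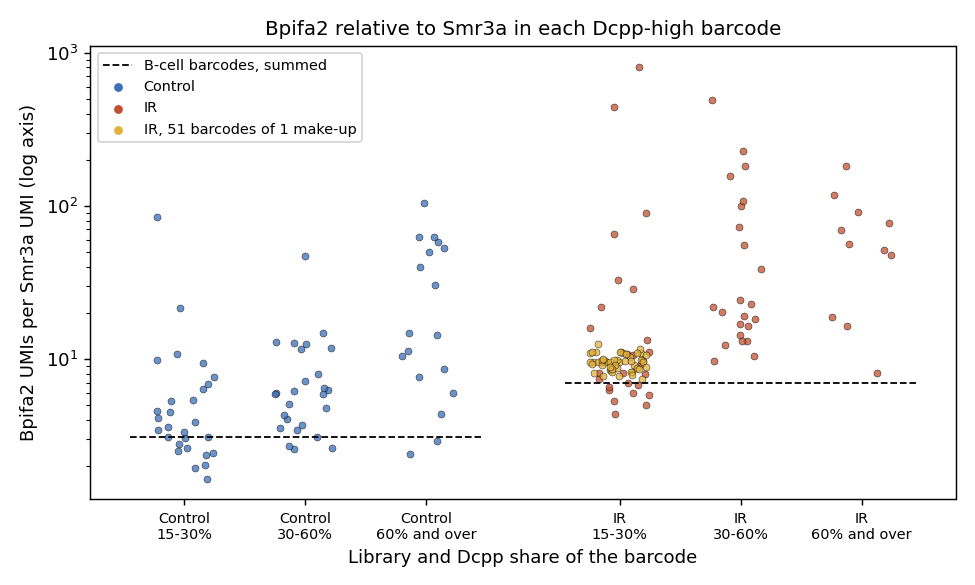
Bpifa2 UMIs per Smr3a UMI (vertical, log axis) in each Dcpp-high barcode by band of Dcpp share and library, with the alike IR barcodes in yellow and lines for the summed ratio in the B-cell barcodes of the same library (3.07 control, 6.93 IR); 1 IR barcode with no Smr3a is drawn at its Bpifa2 count. Medians are higher in each higher band (3.73, 5.94 and 14.5 in the control, 9.55, 21.9 and 56.3 in IR), but single barcodes overlap, and the highest IR values, up to 811, lie in the lower bands.

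Dcpp-high barcodes were next compared with acinar barcodes, which were chosen by 15 serous genes at 50% of UMIs or more and no Etv1 UMI (357 control, 363 IR). UMIs were summed per library and scaled to UMIs outside Dcpp1-3, and a gene counted as higher or lower when its ratio passed 2-fold. Serous genes and Etv1 defined the acinar barcodes and were left out. Of 740 genes with at least 30 UMIs in control Dcpp-high barcodes, 507 (68.5%) were higher and 2 (0.270%) lower. That minimum was set in the Dcpp-high barcodes alone, here and in the Etv1 and striated duct comparisons below. Genes low in them were thus mostly not counted, and the balance of higher and lower genes is partly set by it. For IR, 664 of 1136 (58.5%) were higher and 4 (0.352%) lower, and without the alike barcodes 607 of 776 (78.2%) and 4 (0.515%). On this scale most genes were thus past 2-fold. Far fewer were higher with CPM over all UMIs, and fewer still with TMM, a scaling that sets the typical gene at no change. Those counts are given under the dependence on the processing. Serous genes made up a median of 73.8% of UMIs in control and 70.8% in IR acinar barcodes. The median log2 ratio was 1.36 in control and 1.16 in IR barcodes (1.59 without the alike barcodes), and a gene stands out only beyond that. Of the 507 control genes, 471 were also counted in the IR library, where all 471 had a ratio above 1 and 335 passed 2-fold.

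Among counted genes, those of duct defence had the highest median ratio of the lists described here. Of 16 genes in the list 6 had enough UMIs in the control, 5 of them were higher, and their median log2 ratio was 5.13 against 1.36 for all genes. Genes were counted by their UMIs in the Dcpp-high barcodes, so the medians leave out list genes that were low there. In the IR library 6 of 6 were higher, with a median of 3.63 against 1.16. Summed Wfdc18 was at 3230 CPM in control Dcpp-high and 15.9 CPM in acinar barcodes, a ratio of 204 (149 to 285), although 30.9% of its UMIs came from 1 barcode. The IR ratio was 67.3 (53.1 to 86.6), or 112 without the alike barcodes. Pglyrp1 was 13.0-fold higher (11.3 to 14.9) in control and 9.75-fold higher (8.67 to 11) in IR barcodes. Pigr, the receptor that carries polymeric immunoglobulin into saliva, was 10.6-fold and 8.22-fold higher, and Lcn2, a siderophore-binding lipocalin, 111-fold (36.1 to 555, from 3 acinar UMIs) and 20.3-fold higher. Ltf, in contrast, rested on 1 barcode for 77.1% of its control UMIs. Bglap3 was 7.88-fold higher (7.12 to 8.71) in control and 4.56-fold higher in IR barcodes, while its neighbours Bglap and Bglap2 had 11 and 10 control UMIs. Reads that these near-identical osteocalcin genes share could be split between them. Without the alike barcodes the IR ratios of Pglyrp1, Pigr and Bglap3 were 11.9, 11.3 and 7.27. With TMM, a scaling that sets the typical gene at no change, Wfdc18 was 56.9-fold and 25.1-fold higher, Pglyrp1 3.62-fold and 3.63-fold, and Bglap3 2.20-fold and 1.70-fold.

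Epithelial genes were the next group. All 4 keratins with enough UMIs (Krt8, Krt14, Krt18 and Krt23 of 9) were higher in both libraries, with median log2 ratios of 2.11 in control and 3.01 in IR barcodes. Krt18 was 4.2-fold and Krt8 4.42-fold higher in the control, and 7.47-fold and 8.71-fold in the IR library. With TMM scaling the ratio of Krt18 was 1.18 in the control and 2.78 in IR. All 8 counted transcription factors of 24 were higher in the control (median 2.73), and 10 of 12 in the IR library (median 2.47). They included Ehf, an epithelial ETS factor, at 11.1-fold (7.65 to 16.3) and 7.18-fold, Sox9, a factor of progenitor and duct cells, at 13.0-fold and 9.34-fold, and Nfib at 15.7-fold and 13.9-fold. Elf5, another ETS factor, was nearer to the general shift at 3.26-fold and 2.15-fold. Cell junction and surface genes were higher in 7 of 8 cases in control and 10 of 12 in IR barcodes, among them Cldn3 (3.76-fold and 4.39-fold), Cldn7 (5.68-fold and 5.09-fold) and Epcam (2.78-fold and 2.87-fold). The control value of Epcam was close to the general shift. Genes of ion transport were near the shift or below it, with 3 of 7 and 5 of 8 higher and medians of 0.95 and 1.32. Slc12a2, the sodium-potassium-chloride cotransporter of fluid secretion, was 4.64-fold and 4.94-fold higher, and the water channel gene Aqp5 had ratios of 1.20 and 1.41. Of the ER and secretory machinery genes, 11 of 14 and 9 of 15 were higher, with medians of 1.85 and 1.29, and these shares lie near those of all genes (68.5% and 58.5%). Immediate early genes were higher in 15 of 15 and 13 of 15 cases, with medians of 3.16 and 1.61.

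Several of the genes with the highest control ratios rested on 1 barcode, which held 98.3% of the UMIs of Rsad2, 88.8% of those of Msln, 80.9% of those of Ifit1 and 81.6% of those of Cxcl10. Tmem176a, a membrane protein gene, was spread over 36 of 72 control barcodes and was 71.8-fold higher (44.3 to 123), with 17.7-fold in the IR library. Mgst1, a microsomal glutathione transferase gene, had 32 UMIs in 19 control barcodes and 0 in acinar barcodes, which is at least 63.5-fold higher at a floor of 3 UMIs. Lower than in acinar barcodes were the secretoglobin gene Scgb1b27 (0.354, 0.310 to 0.403) and the major urinary protein gene Mup5 (0.337, 0.266 to 0.421) in the control. The IR ratios were 0.661 and 0.0525.

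**Figure D4:**
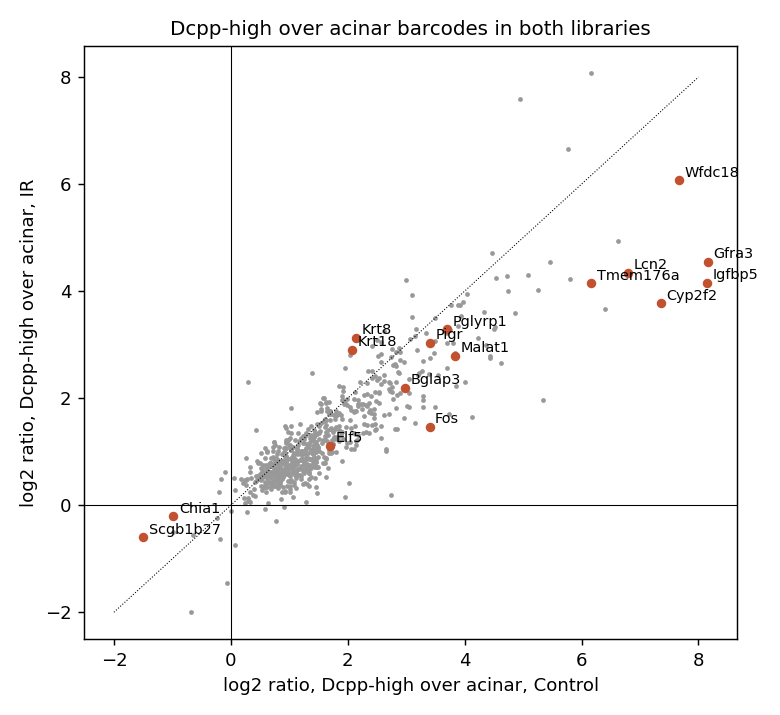
log2 ratio of Dcpp-high over acinar barcodes in the control (horizontal) and IR library (vertical) for 698 genes counted in both, on the CPM scale outside Dcpp1-3, with named genes marked. The cloud lies mainly in the upper right, 689 of the 698 genes are on the same side of 1 in both libraries, and the Spearman correlation across genes is 0.85 (genes are not independent replicates).

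Against barcodes with as much serous RNA and at least 2 UMIs of the ETS factor gene Etv1 (157 control, 113 IR), the shift was smaller. Of 740 control genes 339 (45.8%) were higher and 3 (0.405%) lower, with a median log2 ratio of 0.94. In IR barcodes 429 of 1136 (37.8%) were higher and 4 (0.352%) lower, with a median of 0.83. These barcodes were far deeper, with medians of 41019 and 29481 UMIs. The duct defence genes kept their distance, with 5 of 6 and 6 of 6 higher and medians of 4.31 and 3.71. Wfdc18 was 81.9-fold higher (71.6 to 93.9) in the control, Pglyrp1 9.42-fold and 9.09-fold, and Bglap3 6.39-fold and 4.11-fold. Krt18 was 3.36-fold and 4.54-fold higher. Transcription factors were higher in 7 of 8 and 7 of 12 cases, with Ehf at 2.88-fold and 3.02-fold and Sox9 at 2.86-fold and 3.62-fold. None of 7 ion transport genes passed 2-fold in control and 1 of 8 did in IR barcodes. Slc12a2 had a ratio of 1.06 (0.865 to 1.29) and Aqp5 of 0.976 (0.791 to 1.19) in the control.

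The other duct was compared last. Striated duct barcodes were chosen by Klk1 and Fxyd2 (86 control, 45 IR), and these 2 genes were left out. They were shallow, with medians of 757.5 and 1824 UMIs, and 17 of the 45 IR ones belonged to the second alike set. Of 756 control genes, 126 (16.7%) were higher in Dcpp-high barcodes and 272 (36.0%) lower. In the IR library 184 of 1151 (16.0%) were higher and 239 (20.8%) lower, a count that was 77 without the 51 alike Dcpp-high barcodes. Lowest by the rule for named genes were the haemoglobin genes Hba-a1 (0.0124) and Hbb-bs (0.0186) in the control, where 1 striated duct barcode held 90.9% of the red blood cell UMIs of that class. Their IR ratios were 0.338 and 0.236. Also among the 10 lowest in the control were the malate dehydrogenase gene Mdh1 (0.0818, 0.06 to 0.110), the cytochrome oxidase gene Cox5b (0.0862) and the ATP synthase gene Atp5g1 (0.0996), and no list of such genes was counted. In IR barcodes these 3 had ratios of 0.164, 0.287 and 0.242. Antioxidant genes were lower in 8 of 8 control and 5 of 10 IR cases. Krt7 had a ratio of 0.00697 (0.000827 to 0.0262) in control and 0.0330 in IR barcodes. Higher were Pigr (224 UMIs against 0, at least 16.9-fold in the control; 8.81-fold in the IR library), Wfdc18 (35.3-fold and 11.9-fold), Pglyrp1 (25.1-fold and 2.66-fold) and, in the control, Bglap3 (6.35-fold). IR Bglap3 had a ratio of 1.80, at 1973 CPM against 1094 CPM in striated duct barcodes, but 3145 CPM without the alike barcodes. IR Wfdc18 was likewise at 1981 CPM, and at 3291 CPM without them, against 166 CPM in striated duct barcodes. BC037156 was 5.87-fold higher in the control and 1.49-fold higher in IR. Krt8 and Krt18 had ratios of 0.940 and 0.823 in control and of 3.17 and 1.99 in IR barcodes, so their order differed between the libraries, whereas Krt7 was lower in both. Of the genes past 2-fold in the control, 50 of 118 higher and 123 of 265 lower ones counted in the IR library passed it there too.

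The striated duct list, of the nearest other duct cell, summed to 29 UMIs in control (Klk1 15) and 121 UMIs in IR barcodes (Klk1 58, Crisp3 40, Fxyd2 23), and 1 barcode held 52.1% of the latter. In control Dcpp-high barcodes the 3 endothelial markers had 0 UMIs, and Krt5, Col1a1, Col3a1, Adgre1 and Csf1r were at 0. The 3 T-cell markers summed to 13 UMIs (Cd3d 6), the 3 B-cell markers to 12 (Cd79a 8), the 3 plasma cell markers to 36 (Igkc 28), the 4 myoepithelial markers to 29 (Acta2 18) and the 4 stromal markers to 15 (Dcn 14). In the IR barcodes these sums were 13, 9, 40, 24 and 16, with Col1a1, Col1a2, Col3a1 and Jchain at 0, and the endothelial markers summed to 33 UMIs (Plvap 18) in 11 barcodes. Krt14, a keratin of basal and myoepithelial cells, had 31 control UMIs and 49 IR UMIs. Haemoglobin Hbb-bs was the most abundant marker, with 121 and 100 UMIs. Macrophage markers had 2 UMIs in control and 21 in IR barcodes. At least 2 immune UMIs were found in 7 control and 5 IR barcodes, and the 6% of barcodes with the highest Scrublet doublet scores held 4 and 1 Dcpp-high barcodes.

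Between the libraries, few genes of the Dcpp-high barcodes passed 2-fold. Of 1171 genes with at least 50 UMIs over both, 43 (3.67%) were higher in the IR barcodes and 35 (2.99%) lower, with a median log2 ratio of 0.04. Without the 51 alike barcodes 118 of 940 (12.6%) were higher and 9 (0.957%) lower, and the median was 0.48. Of the 43 higher genes, 32 were counted again without the alike barcodes and 29 passed 2-fold, but only 9 of 32 lower genes did so. With each barcode weighted alike both counts were larger, and lower genes outnumbered higher ones. Higher genes were fewer without the deepest barcodes and most of all these settings without both the deepest and the alike ones.

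Of 4 counted keratins 3 (Krt8, Krt18 and Krt23) were higher with the alike barcodes and 3 without them, beside 3.67% and 12.6% of all genes. The median log2 ratios of the 4 were 1.06 and 1.57 against 0.04 and 0.48 for all genes. Krt14 was nearly level, at 71.4 CPM in control and 78.4 CPM in IR barcodes. Krt8 ranged from 0 to 9954 CPM over control barcodes, with a median of 0, and from 0 to 12576 CPM over IR barcodes, with a median of 1878 (1445 without the alike ones). It was found in 34 of 72 and 94 of 112 barcodes, and the ranges overlapped. Thinned to 500 UMIs outside Dcpp, it was found in 27.0% of control (16.6 to 39.7) and 45.2% of IR barcodes (35.4 to 55.3), or 43.4% without the alike ones, and Krt18 in 60.3% and 64.4%, so at equal depth the intervals of both genes overlapped. Summed Krt8 was at 889 CPM in control and 2543 CPM in IR barcodes, a ratio of 2.86 (2.56 to 3.20), and 2.78 (2.43 to 3.17) without the alike barcodes and the deepest barcode of each library. Krt18, its partner, ranged up to 21234 CPM with a median of 1566 in the control and up to 25361 CPM with a median of 2240 in the IR library. Its ratio was 2.04 (1.88 to 2.21), and 2.44 without those barcodes. Without barcodes that had 2 or more immune UMIs the ratios of Krt8 and Krt18 were 2.01 and 1.42. In other groups Krt8 had ratios of 1.45 in acinar, 1.38 in Etv1 and 0.849 in striated duct barcodes, and 1.35 in B-cells, where it gives the level of free RNA. The difference between these ratios was not tested.

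Of 12 junction and surface genes 1 was higher (Cldn4), and of 15 actin genes 2, beside 3.67% of all genes. Without the alike barcodes 3 of 10 and 5 of 15 were higher, beside 12.6% of all genes. The genes that follow are among the 12 with the highest lower bound. Tm4sf1, a tetraspanin-like membrane protein gene, had 8 control and 120 IR UMIs, in 4 and 33 barcodes, a ratio of 10.4 (5.12 to 24.7), and 18.4 (8.94 to 44.1) without the alike and deepest barcodes. Thbs1, which encodes the matrix protein thrombospondin 1, was 3.38-fold higher, the actin-binding protein gene Csrp1 3.04-fold, Tagln2 3.85-fold and the tight junction gene Cldn4 5.06-fold. Without the alike and deepest barcodes these ratios were 5.56, 3.58, 6.22 and 6.35. Zfp703, a zinc finger gene, had a ratio of 6.94 (2.78 to 22.3) from 50 and 5 UMIs, with 48.0% of the IR UMIs in 1 barcode, and Lmcd1 and Foxo3 had 5.09 and 4.16. Thbs1 was also 4.12-fold higher in acinar barcodes (2.02 to 9.25) and 4.74-fold in B-cells (1.36 to 25.4), where it gives the level of free RNA. Tm4sf1 had a ratio of 3.28 in B-cells, where its UMIs came from 4 IR and 2 control barcodes, and of 15.7 in Etv1 barcodes, from 9 and 1 UMIs. Csrp1 and Tagln2 had 1.43 and 0.750 in B-cells. Ly6a, which encodes the surface antigen Sca-1, depended on few barcodes. Of its 219 IR UMIs the deepest barcode held 108 and the 51 alike barcodes 90, where 41 of 51 had it, while the other 60 barcodes held 21 UMIs in 6 barcodes. Its ratio was 11.7 (6.70 to 22.3), and 2.87 (1.37 to 6.24) without the alike and deepest barcodes. It was 2.68 in acinar and 3.30 in Etv1 barcodes, but 0.417 (0.295 to 0.582) in B-cells. Endothelial cells also express Tm4sf1, Ly6a and Thbs1, and the 3 endothelial markers had 0 UMIs in control and 33 in IR Dcpp-high barcodes (Plvap 18), in 11 barcodes. The part of this in the ratios was not tested.

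Most genes lower in the IR barcodes no longer passed 2-fold without the alike barcodes. Mup5 stayed lower, at 0.163 (0.0933 to 0.271) and 0.170 without the alike and deepest barcodes, with 58.0% of its control UMIs in 1 barcode. It had a ratio of 1.04 in acinar and 1.60 in Etv1 barcodes. Ltf and Cxcl10 also stayed lower (0.111 and 0.234). Immediate early genes were lower in 5 of 16 cases (Btg2, Jun, Ier2, Fos and Dusp1) with the alike barcodes and in 1 of 15 (Ier2) without them. Of all genes 2.99% and 0.957% were lower. Fos, an AP-1 subunit, was at 1214 CPM in control and 374 CPM in IR barcodes. Its ratio was 0.308 (0.263 to 0.360), and 0.825 without the alike and deepest barcodes, and for Jun 0.436 became 1.05. Ier2 had 0.244 and 0.490. Heat shock genes were lower in 4 of 10 and 0 of 10 cases, beside the same shares of all genes. The chaperone gene Hspa1a had 0.360 and 0.642. Compared with the other IR barcodes, the alike barcodes had 329 of 652 genes (50.5%) lower past 2-fold and 3 (0.460%) higher, with all 13 counted immediate early genes and Malat1 among the lower ones. Cst10, a cystatin gene, was 2.83-fold higher in IR with the alike barcodes and had a ratio of 0.968 (0.910 to 1.03) without them and the deepest. Smr3a was lower either way, at 0.414 (0.407 to 0.421) and 0.152, but it was also at 0.467 in B-cells and 0.501 in acinar barcodes, so the Smr3a in free RNA was lower in the IR library as well. Ltf, Ifit1, Rsad2 and Cxcl10 had their control UMIs mainly in 1 barcode each. Of 7 duct defence genes 1 was higher (Cxcl17) and 1 lower (Ltf), with and without the alike barcodes. Of all genes 3.67% were higher and 2.99% lower, and 12.6% and 0.957% without the alike barcodes. Wfdc18 had a ratio of 0.613 (0.568 to 0.663), but 1.02 without the alike barcodes and 1.32 without the deepest ones too. Pglyrp1, Lcn2 and Pigr had ratios of 1.03, 1.03 and 0.710, and of 1.34, 1.15 and 1.12 without the alike and deepest barcodes. For Bglap3, of the osteocalcin cluster, the ratios with all barcodes, without the alike and without both were 0.955, 1.52 and 2.01.

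**Figure D5:**
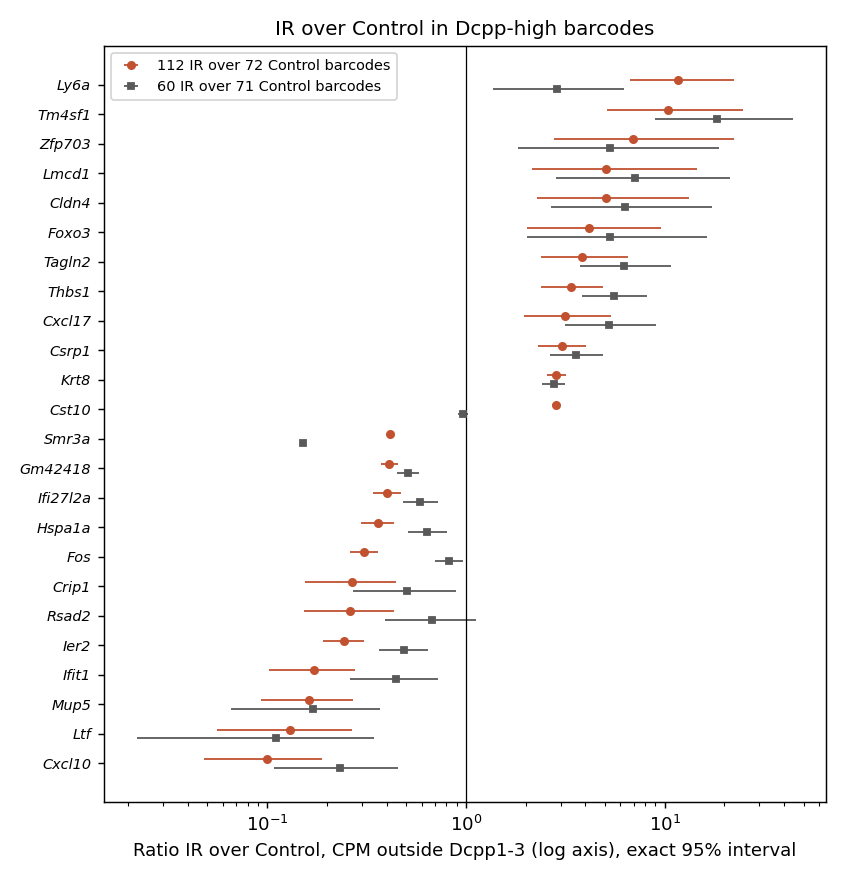
Ratio of IR over control CPM outside Dcpp1-3 in Dcpp-high barcodes (horizontal, log axis) with 95% exact conditional binomial intervals, for the 12 genes with the highest lower bound and the 12 with the lowest upper bound, with all barcodes and without the alike and deepest ones. Krt8 and Tm4sf1 stay on the same side of 1 in both, while Cst10 goes from 2.83 to 0.968 and Fos from 0.308 to 0.825.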

How the data were processed

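Single-cell libraries of the 10x type were made from 1 pool of 2 mice per condition. Per the labels, the authors ran Cell Ranger 3.0.1 on mm10, and what they deposited are unnormalized UMI counts of genes in barcodes. Seurat 3 is also named there. How cells were told from empty droplets is not given in the sources used here.

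The quality filter of the authors' methods was applied (200 genes, 5% mitochondrial UMIs). Members and gene lists were chosen with earlier results of these data known. UMIs were summed over barcodes and scaled to CPM outside Dcpp1-3, without dividing by length, as UMIs were counted at the 3' end. Ratios have exact conditional binomial, shares Clopper-Pearson 95% intervals. Genes needed 50 UMIs over both libraries (IR over control) or 30 in the Dcpp-high barcodes. Named genes were all list genes, the 15 highest and 10 lowest per comparison in the control, and 12 each way for IR over control, ranked by their interval's bound. Python 3.11.15, scipy 1.17.1, scanpy 1.11.5 (Scrublet, doublets kept) and R 4.3.3 with edgeR 4.0.16 (TMM) were used. In simulated Poisson sums from 1 profile, 96.0% of genes raised 3-fold passed 2-fold and 0.509% of unchanged genes did. Of genes set at a ratio of 0.667, 12.0% passed it. The simulation had no variation between barcodes, so these rates cover counting error only and not the uneven barcodes of the data. No replicate existed, so no test was run. 1 gene is not reported here.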

Additional observations from a re-analysis of the deposited data

Results flagged for a closer look

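The Dcpp2 share of Dcpp UMIs minus that of the acinar barcodes was 2.14 percentage points in the control library and -4.62 in the IR library, so the sign differed between the libraries. The difference was not tested. The control value rests on 7 barcodes, which held 81.7% of the control Dcpp2 UMIs, and 1 of them held 6756 of the 14480. Its size without that barcode is not given. In 53 of the 72 control Dcpp-high barcodes, Dcpp2 was under 1% of Dcpp, below the 2.67% of the control acinar sum. The positive sign was thus that of the sum and not that of most barcodes. The IR acinar share was 5.21%, and 4.02% without 15 alike barcodes. The median Dcpp-high barcode had 0.470% in control and 0.496% in IR barcodes.

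Barcodes that the filters left out also held Dcpp. Among those with under 200 genes, 118 of 912 in the control library (12.9%, 10.8 to 15.3) and 56 of 649 in the IR library (8.63%, 6.58 to 11.1) had at least 15% Dcpp, with median totals of 739.5 and 650 UMIs. Among those with over 5% mitochondrial UMIs, 10 of 1260 in control and 16 of 1858 in IR barcodes did. Whether the ones with few genes are cells was not tested.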

How the results depend on the processing

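No paired analysis was possible because each condition has 1 library. Of 413 values under alternatives, 290 were ratios of single genes. Of these ratios 153 stayed within the interval of the main value, and the others did not. Among the remaining values 73 stayed near the main value and 50 moved. A count of genes had moved if it changed by more than 1.5-fold, and a share if it left the interval. Without the alike and deepest barcodes, IR over control crossed 1 for, among others, Cst10 (2.83 to 0.968), Jun (0.436 to 1.05), Dusp1 (0.449 to 1.31), Malat1 (0.527 to 1.35), Wfdc18 (0.613 to 1.32), Pigr (0.710 to 1.12) and Bglap3 (0.955 to 2.01). The alternatives without alike or deepest barcodes and without a gene minimum were chosen after seeing the data.

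The ratio of shares, 0.994, was 2.07 with at least 500 genes, 0.627 at a Dcpp limit of 25%, 1.65 among epithelial barcodes, 0.618 with no gene minimum and 0.541 without the alike barcodes. The values above 1 include alike barcodes and are not given without them, so a ratio above 1 is not shown apart from them. Among 633 IR epithelial barcodes 112 were Dcpp-high, and 51 of these were alike. In the control library 72 of 672 epithelial barcodes were Dcpp-high.

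Genes higher in IR Dcpp-high barcodes, 43, were 85 without a mitochondrial limit, 26 without immune UMIs, 101 with each barcode weighted alike, 151 at 1.5-fold, 13 at 3-fold, 1133 with no UMI minimum, 19 at 100 UMIs, 118 without the alike barcodes, 24 without the deepest and 163 without both. Lower genes, 35, were 19 without a mitochondrial limit, 20 at 25% Dcpp, 23 with CPM over all UMIs, 177 with equal weights, 131 at 1.5-fold, 9 at 3-fold, 1433 with no minimum, 19 at 100 UMIs, 9 without the alike barcodes and 14 without both. List genes higher, 10, were 18 without a mitochondrial limit, 16 at 10% and 6 at 25% Dcpp, 6 without the deepest and 37 without both. List genes lower, 17, were 10 without a mitochondrial limit and 9 without both.

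Genes higher than in acinar barcodes, 507 in control and 664 in IR barcodes, were 252 and 385 with CPM over all UMIs, 233 and 334 without abundant genes in the total, 104 and 197 with TMM, 303 and 387 at 3-fold, 6869 and 6235 with no minimum, and 122 and 146 at 100 UMIs. The IR count was 1083 without a mitochondrial limit and 408 at 25% Dcpp. Genes lower than in IR striated duct barcodes, 239, were 77 without the alike barcodes. The Dcpp2 share, 4.81% in control and 0.589% in IR barcodes, was 0.470% and 0.496% as a median, and 5.12% without the deepest control barcode. That barcode held only 100 of the 14480 control Dcpp2 UMIs. Another held 6756 of them, and the share without that one is not given.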
